A study of Mus musculus with 6 samples.

Results

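The genes described here are 39 of the 55471 genes counted in the mouse hippocampus: the 19 Wnt ligands, the 10 Frizzled receptors, the co-receptors Lrp5 and Lrp6, and 8 secreted antagonists of the Dkk and Sfrp families. They were listed by gene name, with earlier results of these data known, and all 39 were found in the annotation. RNA-seq was performed on the hippocampus of 3 p300-ifKO mice and 3 control littermates, all C57BL/6 and between 3 and 6 months of age, with 1 library per mouse. In p300-ifKO mice the floxed Ep300 gene was recombined by creERT2 under the Camk2a promoter, which is active in excitatory neurons of the forebrain, so that other cells of the tissue kept the gene. Per the study's methods, these neurons still make a shortened p300 without acetyltransferase activity. Both genotypes received tamoxifen in corn oil (20 mg/ml) 5 times by the intragastric route. The protocol describes controls as littermates without the Cre transgene, whereas the label of every control library also carries the name of the driver.

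Wnt ligands are lipid-modified secreted proteins that bind Frizzled receptors at the cell surface. Together with Lrp5 or Lrp6, they block the breakdown of β-catenin, which then enters the nucleus and activates genes with TCF/LEF factors, recruiting CBP or p300 as coactivators. Other Wnt and Frizzled pairs act without β-catenin, on cell polarity and axon guidance. In the hippocampus the pathway is known for its part in development of the tissue, neurogenesis in the adult dentate gyrus and synapse formation.

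Libraries held between 23151568 and 28433823 counts. Values within a gene are given as normalized counts, that is counts divided by the DESeq2 size factor of the library, listed for replicates 1, 2 and 3 of each genotype. Levels of different genes were compared in TPM, the share of transcripts after division by exonic length, scaled to the same total in every library. Ep300 itself had 1545, 1474 and 2334 normalized counts among control mice, against 478, 1350.3 and 912 among p300-ifKO mice, with no overlap between genotypes. Its log2 fold change of −0.97 ± 0.33 (SE) did not pass the threshold (DESeq2 adjusted p = 0.991). Among the p300-ifKO mice, replicate 2 lay nearest to the control mice. Ep300 has 14273 exonic bases, more than any member, and the part in its values of the relation to length described below was not tested. Esr1, part of which is carried by creERT2, had between 87.2 and 109 normalized counts in control mice and between 2416 and 4217 in p300-ifKO mice. Arsi, which the study places on the DNA used to make the driver strain, had between 24.2 and 38.8 in control mice and between 168 and 204 in p300-ifKO mice. Both genes were thus high in the libraries titled p300-ifKO only, although the labels of control libraries name the driver too. Markers of hippocampal excitatory neurons were present in all libraries, with 10 of 10 above 0 and a summed level between 3512 and 4600 TPM. Libraries differed in a further respect that touches the values below: p300-ifKO replicate 1 and control replicate 3 lay at opposite ends of the first principal component, computed on the 1000 genes of highest variance, with scores of −46.4 and 28.1, and this component held 66.5% of their variance.

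The adult hippocampus contained RNA of most of these genes. Of the 39 members, 38 had at least 1 read and 26 reached a mean of 1 TPM over the 6 libraries, which is used here as the limit for an expressed gene. These were 12 of 19 ligands, 8 of 10 Frizzled receptors, both co-receptors and 4 of 8 antagonists. At a limit of 0.5 TPM the number was 31, and at 2 TPM it was 22. Dkk3 was the most abundant member at 482 TPM, followed by Wnt7b (37.2 TPM), Fzd3 (26.6 TPM), Wnt7a (17.6 TPM), Wnt4 (15.7 TPM), Lrp6 (14.3 TPM) and Wnt9a (13.4 TPM). In the order of levels, 3 neighbouring pairs were apart, in that their ranges over the 6 libraries did not overlap: Dkk3 above Wnt7b, Wnt7b above Fzd3 and Wnt9a above Fzd1. The ranges of all other neighbours in the order overlapped, so their ranks are not resolved by these libraries.

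**Figure D1:**
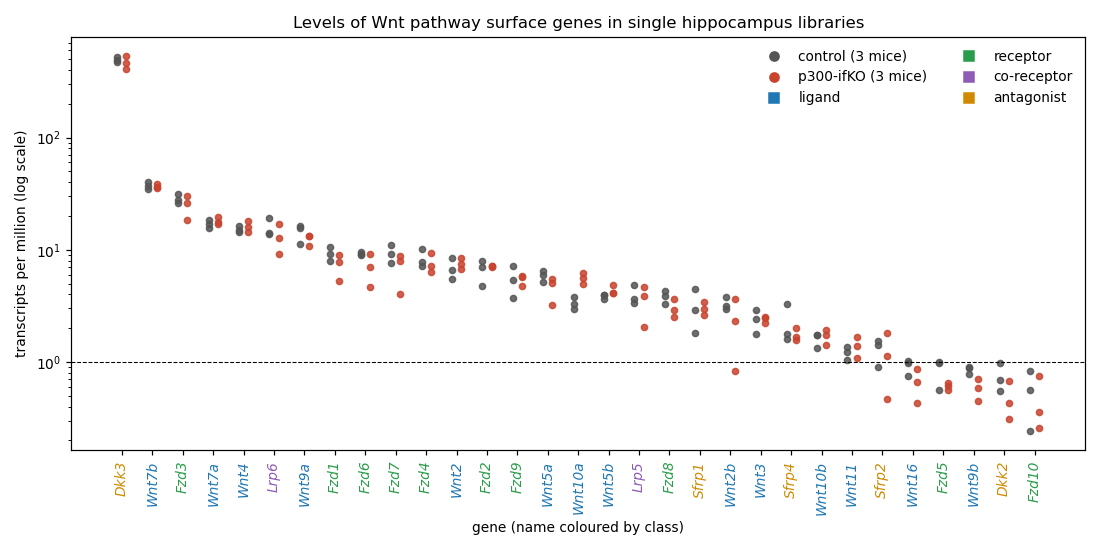
Level of the 31 members with a mean of at least 10 normalized counts, in TPM on a log scale, with a point for each mouse (grey, control; red, p300-ifKO; dashed line at 1 TPM) and gene names coloured by class. Dkk3 stands alone at 411 to 534 TPM, the other genes lie from 40.1 TPM downwards, with Wnt7b clear of Fzd3 and Wnt9a of Fzd1, and the points of both genotypes overlap for most genes.

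Among the ligands, 4 genes made up most of the RNA. Wnt7b took 32.2% of the summed ligand TPM on average over the libraries, Wnt7a 15.2%, Wnt4 13.6% and Wnt9a 11.6%. The summed ligand level was 124, 111 and 112 TPM among control mice, against 113, 114 and 119 TPM among p300-ifKO mice, with means of 116 ± 6.92 (SD, n = 3) and 116 ± 3.12 (SD, n = 3). The means of the ligand pool thus differed by less than the SD of either genotype.

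Wnt7b, which promotes dendrite growth and, with Wnt7a, the vessels of the brain, had 1281, 1156 and 1162 normalized counts among control mice, against 1331, 1097 and 1270.1 among p300-ifKO mice. Wnt7a, which promotes presynaptic assembly, had 379.8, 333 and 344 normalized counts among control mice, against 401, 352 and 419 among p300-ifKO mice. The log2 fold changes of the pair were 0.038 ± 0.13 (SE) and 0.15 ± 0.15 (SE). Both genes overlapped between genotypes, and their 95% intervals, −0.23 to 0.30 for Wnt7b and −0.16 to 0.45 for Wnt7a, leave out a change of 1.5-fold in either direction. The ratio of Wnt7b to Wnt7a per exonic length was between 1.96 and 2.24 in the 6 libraries. Wnt4 had 444, 408 and 401 normalized counts among control mice, against 500.5, 384 and 506 among p300-ifKO mice, and its log2 fold change was 0.15 ± 0.17 (SE). Wnt9a had 338, 362 and 239.8 normalized counts among control mice, against 326, 278 and 238 among p300-ifKO mice, and its log2 fold change was −0.16 ± 0.22 (SE). Control replicate 3 and p300-ifKO replicate 3 were both low for Wnt9a, and the genotypes overlapped for both genes.

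Ligands of intermediate level followed. Wnt2, a ligand of the β-catenin branch, had 124, 99.8 and 79.6 normalized counts among control mice, against 142, 107 and 102 among p300-ifKO mice, with a log2 fold change of 0.21 ± 0.26 (SE). Wnt5a, the best-known ligand of the branch without β-catenin, had 307, 269 and 320.4 normalized counts among control mice, against 186, 250.1 and 286 among p300-ifKO mice, and its log2 fold change was −0.31 ± 0.21 (SE), with p300-ifKO replicate 1 the lowest. Its paralogue Wnt5b had 68.6, 65.1 and 67.4 normalized counts among control mice, against 96.7, 68.9 and 72.3 among p300-ifKO mice, and its log2 fold change was 0.24 ± 0.26 (SE). Every p300-ifKO mouse was above every control mouse for Wnt5b, although replicates 2 and 3 exceeded the highest control by less than 4 normalized counts. Per exonic length, Wnt5a stood at 0.651 to 1.6 times Wnt5b, so that the more abundant of the pair differed between libraries. Wnt10a, known from teeth and skin appendages, had 61.6, 49.4 and 52.0 normalized counts among control mice, against 114, 77.8 and 91.6 among p300-ifKO mice, and is taken up below.

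The remaining expressed ligands were Wnt2b, Wnt3, Wnt10b and Wnt11. Wnt3, which astrocytes of the dentate gyrus supply to neural progenitors, had 48.7, 59.9 and 34.7 normalized counts among control mice, against 50.5, 48.6 and 50.1 among p300-ifKO mice, with a log2 fold change of 0.059 ± 0.32 (SE). Wnt10b had 29.8, 39.9 and 37.8 normalized counts among control mice, against 35.4, 41.5 and 39.5 among p300-ifKO mice, and its log2 fold change was 0.12 ± 0.33 (SE). Wnt11, which acts on cell movement in the embryo, had 32.8, 37.8 and 27.6 normalized counts among control mice, against 51.6, 36.2 and 29.9 among p300-ifKO mice, and its log2 fold change was 0.26 ± 0.37 (SE). These 3 genes overlapped between genotypes. Wnt2b, a ligand of the embryonic cortical hem, had 86.5, 83.0 and 102 normalized counts among control mice, against 25.8, 96.3 and 64.6 among p300-ifKO mice, and its log2 fold change was −0.53 ± 0.42 (SE). The library of p300-ifKO replicate 1 lay far below all others for Wnt2b, whereas p300-ifKO replicate 2 was above 2 of the 3 control mice, and without replicate 1 the log2 fold change was −0.17.

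The other 7 ligands were under 1 TPM. Wnt16 and Wnt9b were at 0.787 and 0.717 TPM, with between 14.0 and 28.6 normalized counts per library for Wnt16 and between 13.5 and 27.3 for Wnt9b. Wnt1, Wnt6 and Wnt8b were at 0.412, 0.306 and 0.243 TPM. Wnt3a, needed for the hippocampus to form in the embryo, had between 0 and 4 reads per library, and Wnt8a between 0 and 2. At such counts a difference between genotypes was not detectable at this depth, and for Wnt1 and Wnt3a the absence of overlap between genotypes (p300-ifKO lower in both) rests on 4 to 9 and on 0 to 4 reads per library.

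Expression differed between ligand genes that lie side by side. In 4 places of the genome 2 ligand genes are neighbours within 100 kb: Wnt6 and Wnt10a on chromosome 1 (6193 bases apart), Wnt3a and Wnt9a on chromosome 11 (16175 bases), Wnt9b and Wnt3 on chromosome 11 (24328 bases) and Wnt10b and Wnt1 on chromosome 15 (11706 bases). In each of these pairs, and in each of the 6 libraries, the same gene was higher per exonic length. Wnt9a was at 10.7 to 16.2 TPM over the libraries and Wnt3a at 0 to 0.232 TPM. Wnt10a was at 2.98 to 6.21 TPM and Wnt6 at 0 to 0.593 TPM, Wnt3 was at 1.77 to 2.90 TPM and Wnt9b at 0.448 to 0.900 TPM, and Wnt10b was at 1.34 to 1.93 TPM and Wnt1 at 0.243 to 0.577 TPM. The ranges of the 2 genes of a pair did not overlap in any of the 4 places.

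The start regions of the most unequal pair, Wnt9a and Wnt3a, which are transcribed away from each other, are shown because both are rich in CpG and only Wnt9a was above 1 TPM. They are the 250 bases before the RefSeq start on GRCm38, 5′ to 3′ on the strand of the gene, at chr11:59306680-59306929 (plus strand) for Wnt9a and chr11:59290752-59291001 (minus strand) for Wnt3a, and lie before the first exon apart from at most 2 bases. Wnt11, at chr7:98834862-98835111 (plus strand), is shown as the member whose region held both motifs searched. These are CTTTGAT (or ATCAAAG on the other strand), bound by TCF/LEF factors, and TGACG (or CGTCA), a short form of the site of CREB, which works with CBP and p300. Capitals mark the motifs.
Wnt9a: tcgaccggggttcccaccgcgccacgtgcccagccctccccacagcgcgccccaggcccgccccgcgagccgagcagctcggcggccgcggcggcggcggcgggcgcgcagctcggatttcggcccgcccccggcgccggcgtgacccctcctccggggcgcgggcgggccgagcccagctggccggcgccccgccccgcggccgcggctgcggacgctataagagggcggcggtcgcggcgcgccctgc
Wnt3a: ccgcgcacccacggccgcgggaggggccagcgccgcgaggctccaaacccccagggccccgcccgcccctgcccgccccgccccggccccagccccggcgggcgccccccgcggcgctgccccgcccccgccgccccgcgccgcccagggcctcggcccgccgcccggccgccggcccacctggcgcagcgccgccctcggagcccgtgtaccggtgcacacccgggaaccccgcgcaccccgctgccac
Wnt11: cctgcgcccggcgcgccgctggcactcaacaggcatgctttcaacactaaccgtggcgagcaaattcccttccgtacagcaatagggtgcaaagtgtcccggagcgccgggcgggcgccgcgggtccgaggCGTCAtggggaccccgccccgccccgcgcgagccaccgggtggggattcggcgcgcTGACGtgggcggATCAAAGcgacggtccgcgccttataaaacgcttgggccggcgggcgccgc

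In the full window of 300 bases, 50 after the start included, the ratio of observed to expected CpG was 1.12 for Wnt9a, 0.86 for Wnt3a and 1.18 for Wnt11, against a median of 0.38 over all 32851 RefSeq promoters. Promoters were available for 25 of the 39 members, 28 windows in all. Windows of expressed members had a median ratio of 0.84 (17 windows) and those of members under 1 TPM 0.70 (11 windows), with ranges that overlapped, 0.19 to 1.18 and 0.33 to 0.99. The TCF/LEF motif was present in 2 of the 28 windows, at Wnt11 and at a start of Wnt5b, and in 3.7% of all promoters. The TGACG motif was present in 4 windows of 3 genes, Wnt11, Wnt10b and Sfrp5, and in 20.8% of all promoters. No promoter entry was matched for Wnt5a, Wnt7b, Wnt8a, Wnt10a, Fzd2, Fzd3, Fzd6, Fzd8, Lrp5, Lrp6, Dkk3, Dkk4, Sfrp1 or Sfrp4.

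Frizzled receptors were led by Fzd3, which guides axons through the polarity branch and took 35.0% of the summed Frizzled TPM. Fzd3 had 2304, 2249 and 2579.7 normalized counts among control mice, against 1755, 2420.4 and 2223 among p300-ifKO mice, and its log2 fold change was −0.16 ± 0.16 (SE). Fzd6, its partner in the polarity branch, had 287, 289 and 295 normalized counts among control mice, against 168, 282 and 225 among p300-ifKO mice, and its log2 fold change was −0.37 ± 0.22 (SE) (DESeq2 unadjusted p = 0.0916, adjusted p = 0.991). Each p300-ifKO mouse was below each control mouse for Fzd6, but replicate 2 by less than 6 normalized counts. Fzd7 had 271, 233 and 317 normalized counts among control mice, against 136, 251 and 239 among p300-ifKO mice, and its log2 fold change was −0.39 ± 0.26 (SE). Fzd1 had 252, 226 and 281 normalized counts among control mice, against 164, 205 and 251 among p300-ifKO mice, and its log2 fold change was −0.29 ± 0.21 (SE). In Fzd3, Fzd6, Fzd7 and Fzd1 alike, p300-ifKO replicate 1 was the lowest of the 6 libraries.

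Fzd4, which is also the receptor of norrin in vessels, had 338, 324 and 435 normalized counts among control mice, against 314, 397 and 323 among p300-ifKO mice, and its log2 fold change was −0.084 ± 0.19 (SE). Fzd2 had 189.9, 118 and 164 normalized counts among control mice, against 192, 164 and 176 among p300-ifKO mice, and its log2 fold change was 0.17 ± 0.23 (SE). Fzd9, whose human counterpart lies in the Williams syndrome region, had 106, 57.8 and 78.6 normalized counts among control mice, against 98.8, 68.9 and 87.8 among p300-ifKO mice, and its log2 fold change was 0.069 ± 0.30 (SE). Control replicate 2 was the lowest library for Fzd2 and Fzd9, and the genotypes overlapped for all 3 genes. Fzd8 had 127, 157 and 162 normalized counts among control mice, against 113, 136 and 116 among p300-ifKO mice, and its log2 fold change was −0.29 ± 0.21 (SE), and 2 of 3 p300-ifKO mice were below all control mice. Fzd5 and Fzd10 were under 1 TPM, at 0.725 and 0.502 TPM. The summed Frizzled level was 82.7, 71.2 and 91.5 TPM among control mice, against 55.5, 81.4 and 73.8 TPM among p300-ifKO mice, and overlapped.

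The co-receptor Lrp6 was 3.31 to 4.45 times as abundant as Lrp5 per exonic length in the 6 libraries. Lrp6 had 1267, 1263 and 1666 normalized counts among control mice, against 934, 1462 and 1171 among p300-ifKO mice, and its log2 fold change was −0.23 ± 0.21 (SE). Lrp5 had 231, 219.6 and 299 normalized counts among control mice, against 149, 286 and 252 among p300-ifKO mice, and its log2 fold change was −0.12 ± 0.27 (SE). For both, control replicate 3 was the highest library and p300-ifKO replicate 1 the lowest, and the genotypes overlapped. Lrp6 and Fzd3 have the longest exonic sequence of the members (13672 and 12804 bases).

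Dkk3, a divergent member of the Dkk family that is abundant in neurons, took 98.5% of the summed antagonist TPM. It had 10715, 11905 and 9999.5 normalized counts among control mice, against 10243, 11320.0 and 10422 among p300-ifKO mice, and its log2 fold change was −0.028 ± 0.12 (SE), with a 95% interval of −0.27 to 0.21. This was the narrowest interval among the members. Dkk1 and Dkk4, inhibitors that bind Lrp5 and Lrp6, were near or at 0: Dkk1 had 0 or 1 read per library, and Dkk4 had 0 reads in all 6, which allows up to 3 reads per library, or 0.319 to 0.366 TPM. Dkk2 was at 0.608 TPM with between 7.72 and 23.9 normalized counts.

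Secreted Frizzled-related proteins, which bind Wnt ligands outside the cell, were low. Sfrp1 had 83.5, 53.6 and 124 normalized counts among control mice, against 84.8, 81.3 and 100.3 among p300-ifKO mice, and its log2 fold change was 0.026 ± 0.33 (SE). Sfrp4 had 48.7, 45.2 and 86.7 normalized counts among control mice, against 51.6, 41.5 and 55.9 among p300-ifKO mice, and its log2 fold change was −0.28 ± 0.35 (SE), while Sfrp2 had 19.9, 22.1 and 12.2 normalized counts among control mice, against 7.52, 24.7 and 16.4 among p300-ifKO mice, and its log2 fold change was −0.14 ± 0.57 (SE). Control replicate 3 was the highest library for Sfrp1 and Sfrp4 and p300-ifKO replicate 1 the lowest for Sfrp2. Sfrp5 had 0, 1 and 4 reads among control mice, against 5, 5 and 14 among p300-ifKO mice, so that the genotypes did not overlap, at counts near the limit of detection (DESeq2 unadjusted p = 0.0603, adjusted p = 0.991). Markers of the choroid plexus, which borders the hippocampus, had a summed level of 99, 27.5 and 399 TPM in the control libraries and 106, 142 and 595 TPM in the p300-ifKO libraries. Of 8 such markers 0 were at 0 in every library and 7 had a higher mean in p300-ifKO mice. The library with the highest sum in each genotype was also the highest of its genotype for Sfrp1 (control replicate 3 and p300-ifKO replicate 3) and for Sfrp5, and the part of the choroid plexus in these values was not tested.

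The question asked of the whole set was whether the loss of p300 in excitatory neurons shifted these transcripts. Of the 38 members with a read, 0 passed an adjusted p of 0.05 in DESeq2 in either direction, and their adjusted p values were between 0.991 and 0.997. Over all 32773 genes tested, 2 genes were called, which is 0.0061%. The called genes were Arsi (DESeq2 adjusted p = 3.0e-17) and Esr1 (DESeq2 adjusted p = 4.5e-92), whose link to the driver is given above. At an unadjusted p under 0.05 there was 1 of the 38 members, Wnt10a, against 1.32% of all genes tested (432 genes). Among genes with a mean of at least 10 normalized counts, as Wnt10a has, the share was 2.24% (383 of 17070). Wnt10a was higher in p300-ifKO mice, and genes higher at that p were 0.772% of all genes tested. The edgeR quasi-likelihood test called 0 members as well and likewise had 1, Wnt10a, at an unadjusted p under 0.05, and limma-voom gave the same numbers. Over all 17131 genes in these fits, edgeR had 394 and limma-voom 369 genes at that p. In a tissue of mixed cells, fewer cells of a type and less RNA per cell cannot be told apart.

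**Figure D2:**
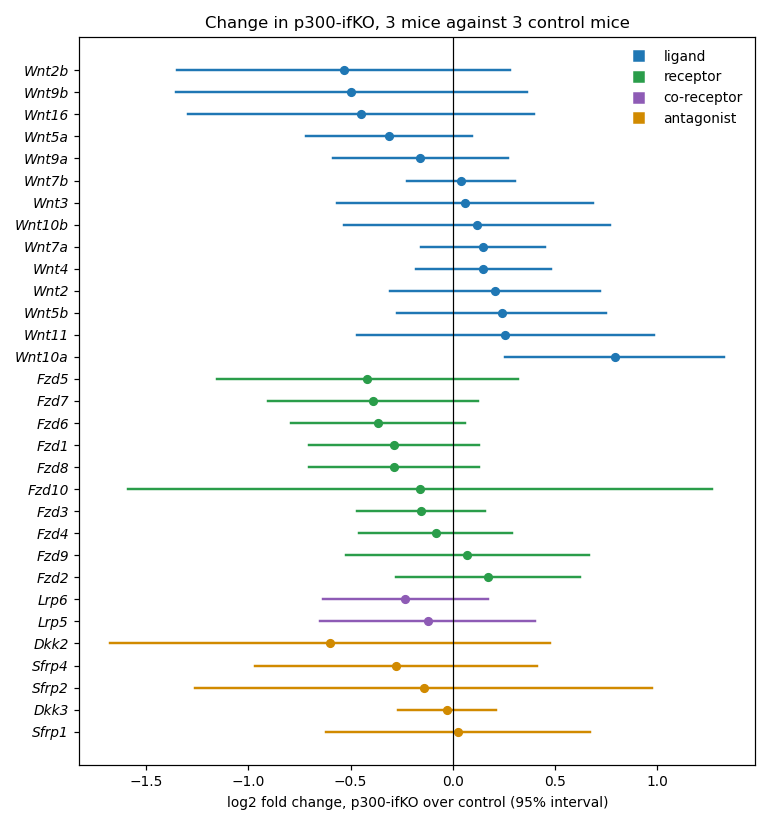
Log2 fold change, p300-ifKO over control, of the 31 members with a mean of at least 10 normalized counts, from the DESeq2 fit to 3 mice per genotype. Points are estimates, bars their 95% intervals and colours the class. The interval of Wnt10a, 0.26 to 1.33, is the only one of the 31 that leaves out 0, and low genes such as Fzd10 and Dkk2 have the widest intervals.

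How much these libraries could have shown is given by the intervals. Of the 31 members with a mean of at least 10 normalized counts, 23 had a 95% interval that lay within a 2-fold change in either direction, and 6 had an interval within 1.5-fold. Members under that mean were 8. Among the 31, 12 had a positive log2 fold change and 19 a negative one (61.3%), beside 50.7% negative among the 17071 genes past the same mean. The median was −0.14 for the members and −0.0051 for all those genes.

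By class, 9 of 14 ligands were positive with a median of 0.089. For the receptors, 8 of 10 were negative with a median of −0.22. Both co-receptors were negative, with a median of −0.18, and 4 of 5 antagonists were negative, with a median of −0.14. These directions were not alike under every scaling: with smooth length offsets per library the co-receptors split 1 and 1 (median −0.012), 7 of 10 receptors were negative (median −0.21) and 9 of 14 ligands positive (median 0.093). With 1 surrogate variable the ligands split 7 and 7 (median −0.012), both co-receptors were positive (median 0.10) and 7 of 10 receptors negative (median −0.12). No class was tested as a set.

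Wnt10a (ENSMUSG00000026167, chromosome 1, 74791516 to 74804179 on GRCm38, plus strand) showed the largest relative difference among the expressed members. Its mean was 54.4 ± 6.45 (SD, n = 3) for control mice and 94.4 ± 18.2 (SD, n = 3) for p300-ifKO mice, and the lowest p300-ifKO mouse (77.8) exceeded the highest control mouse (61.6). The log2 fold change was 0.79 ± 0.27 (SE), with a 95% interval of 0.26 to 1.33, and the DESeq2 fit across all genes gave an unadjusted p = 0.00381 (adjusted p = 0.991). It therefore did not pass the threshold, although it was higher in 3 of 3 mice. The direction was the same in all 16 alternative fits, between 0.59 and 0.92. These fits reuse the same libraries, in which the genotypes do not overlap for Wnt10a, so its direction could hardly have turned. The unadjusted p rose above 0.05 without p300-ifKO replicate 1 (0.0525), with 1 surrogate variable (0.0586), and without both p300-ifKO replicate 1 and control replicate 3 (0.105). No stretch of 50 bases of its transcripts occurred in the transcripts of another gene, and no exon of another gene overlapped it. Its neighbour Wnt6 had between 0 and 8.68 normalized counts, and its paralogue Wnt10b had a log2 fold change of 0.12.

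Of the 31 members, 3 did not overlap between genotypes: Wnt10a and Wnt5b with p300-ifKO mice above, and Fzd6 with p300-ifKO mice below. Among all 17071 genes past the same mean, 7.46% did not overlap, 4.09% with p300-ifKO above and 3.37% with p300-ifKO below. Fzd6 (ENSMUSG00000022297, chromosome 15, 39006034 to 39038188, plus strand) shares 3.15% of its exonic bases with Gm26704 on the opposite strand. Among members under the mean of 10, Sfrp5, Wnt1 and Wnt3a did not overlap either, at the counts given above. The share without overlap among all genes under that mean was not computed.

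**Figure D3:**
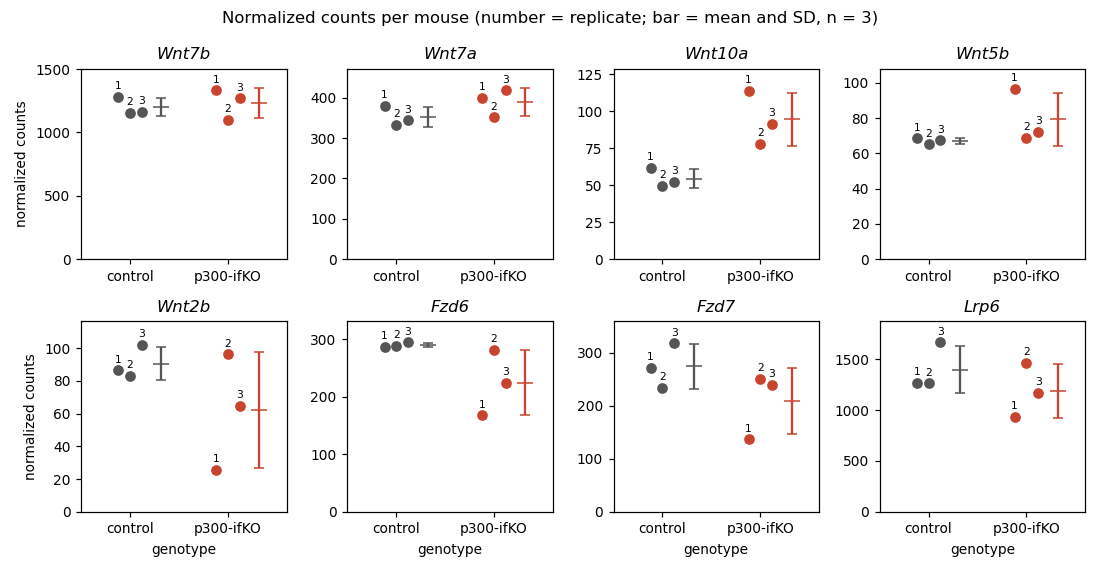
Normalized counts of 8 members in each mouse (number, replicate; grey, control; red, p300-ifKO), with the mean and SD of 3 mice beside the points and axes that start at 0. Wnt10a and Wnt5b lie higher in all p300-ifKO mice, Fzd6 lies lower in all of them, and in Wnt2b, Fzd6, Fzd7 and Lrp6 p300-ifKO replicate 1 is the lowest point.

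Differences between libraries were related to the length of the genes. For each library, deviations from the mean of a gene were correlated with exonic length over all genes past the mean of 10 (Spearman's rho across genes, which are not independent). The rho was 0.18, 0.16 and 0.41 in the control libraries and −0.50, 0.42 and −0.28 in the p300-ifKO libraries. In the fold changes the same relation had a rho of −0.52 over the 31 members and −0.44 over all 17071 genes. All 6 members of at least 6000 bases had negative values, with a median of −0.20, where 79.2% of all genes of that length were negative, with a median of −0.13. Of the 25 shorter members 13 were negative, with a median of −0.028, where 39.4% of all shorter genes were negative, with a median of 0.064. The direction of Fzd3, Fzd4 and Lrp5, 3 of the 6 long members, turned with length offsets, to 0.032, 0.017 and 0.016, while Lrp6 went from −0.23 to −0.039. The short genes Wnt10a and Wnt5b, of 2468 and 2654 bases, kept their directions, with 0.71 for Wnt10a.

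**Figure D4:**
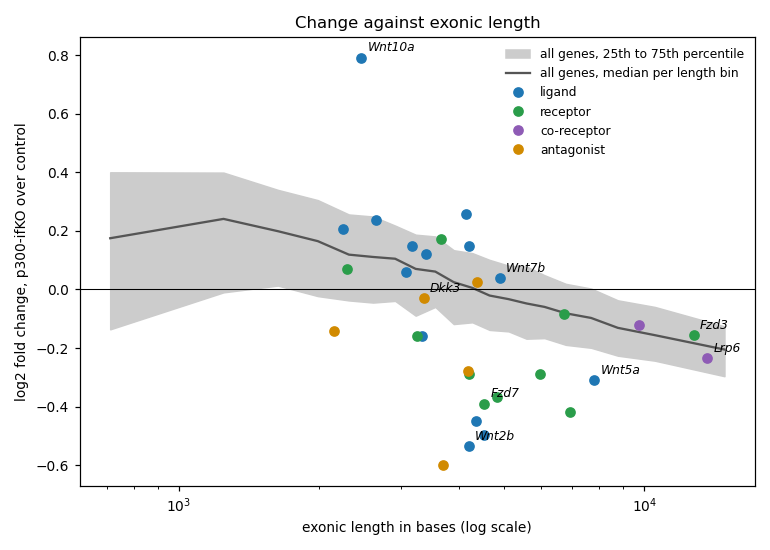
Log2 fold change, p300-ifKO over control, against exonic length in bases (log scale) for the 31 members, coloured by class, over the median (line) and the 25th to 75th percentile (band) of all 17071 genes in 20 bins of length. The line falls from short to long genes, the longest members Fzd3 and Lrp6 lie in the band, and Wnt10a lies far above it.

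Extremes were unevenly spread over the libraries. Control replicate 3 was the highest library for 14 of the 31 members (21.9% of all genes), and p300-ifKO replicate 1 was the lowest for 12 of them (37.8% of all genes) and the highest for 7 (37% of all genes). The lowest deviations in p300-ifKO replicate 1 were those of Wnt2b (−1.43), Sfrp2 (−1.04), Fzd7 (−0.78), Lrp5 (−0.645) and Wnt16 (−0.637) on the log2 scale, and the highest those of Fzd10 (0.88) and Wnt10a (0.68). Without p300-ifKO replicate 2, DESeq2 called 926 genes (2.89% of 32019), 0 of them members, and 5 members had an unadjusted p under 0.05, where 12.8% of all genes did: Wnt10a was higher, and Wnt2b, Fzd6, Fzd7 and Lrp6 were lower. In this fit independent filtering left Wnt10a and Wnt2b, among others, without an adjusted p, so they could not be called. Among the adjusted p values given, the smallest of a member in any fit was 0.0693, that of Fzd6 in this one. Without p300-ifKO replicate 1 and control replicate 3 together, an alternative chosen after seeing the data, 2 members had an unadjusted p under 0.05, beside 97 of 30899 genes tested. These members were Wnt9a (−0.44, lower) and Sfrp5 (higher), and 0 members were called.

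**Figure D5:**
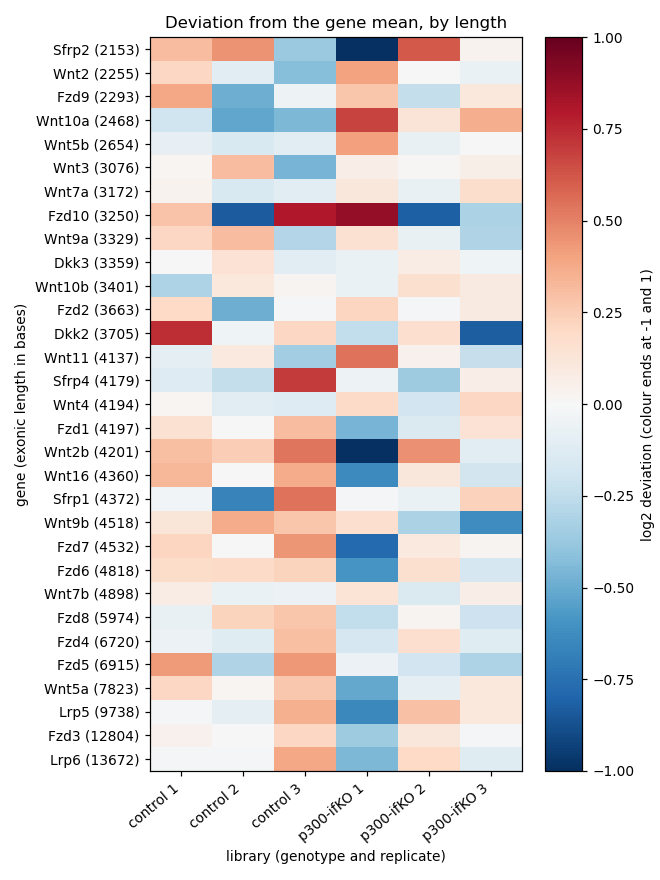
Log2 deviation of each of the 31 members from its mean over the 6 libraries, with genes ordered from short (top) to long (bottom), exonic length in bases in brackets and colours ending at −1 and 1. The library of p300-ifKO replicate 1 is blue for the long genes and for Wnt2b, Fzd7, Wnt16 and Sfrp2, and control replicate 3 is red for most of the same genes.

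Markers of fibroblasts of the meninges, which express Wnt and Sfrp genes, were lower on average in p300-ifKO libraries, with overlap. Their summed level was 107, 76.7 and 145 TPM in control libraries and 51.8, 81.1 and 86.1 TPM in p300-ifKO libraries. All 8 had a negative log2 fold change, with a median of −0.51, 2 of them (Dcn and Ogn) had an unadjusted p under 0.05, 0 were called and 0 were at 0 in every library. The library with the lowest sum, p300-ifKO replicate 1, was the lowest for Wnt2b and Wnt16. The one with the highest sum, control replicate 3, was the highest for Wnt2b, Wnt16 and Sfrp4. These libraries were the lowest for 12 and the highest for 14 of the 31 members in all. Sfrp4 was lowest in p300-ifKO replicate 2 (41.5 normalized counts). Dkk2 was highest in control replicate 1 (23.9) and lowest in p300-ifKO replicate 3 (7.72). The part of these cells in the values of Wnt2b, Wnt16, Dkk2 and Sfrp4 was not tested. The other marker lists, those of excitatory neurons (median −0.014), interneurons (−0.057), astrocytes (−0.041), oligodendrocytes (0.19), microglia (0.18), endothelium (−0.15), pericytes (−0.052), thalamus and habenula (−0.054) and blood (−0.18), had 0 called genes each. At an unadjusted p under 0.05 in DESeq2 there were 2 of the 8 microglia markers (C1qa and Trem2, higher), 1 of the 8 astrocyte markers (Slc1a3, lower) and 0 markers of the other 7 lists. All 5 blood markers had a negative log2 fold change, and 7 of 8 oligodendrocyte markers a positive one.

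The rest of the pathway was read from 81 further genes in lists for secretion of ligands, other surface proteins, the cytoplasm, the nucleus, cell polarity and known targets. In DESeq2 0 of the 81 were called in either direction, beside 0.0061% of all genes tested. At an unadjusted p under 0.05 there was 1 of the 81, Dkkl1, beside 1.32% of all genes tested. Dkkl1, a relative of Dkk3, had 21.9, 27.3 and 17.3 normalized counts among control mice, against 61.2, 29.2 and 40.5 among p300-ifKO mice, with a log2 fold change of 0.97 ± 0.42 (SE). Of the 78 genes with a mean of at least 10 normalized counts, 19 were positive and 59 negative, with a median of −0.11. Among all genes past that mean 50.7% were negative, with a median of −0.0051. With length offsets these numbers were 33 and 45, with a median of −0.014, and with 1 surrogate variable 37 and 41, with a median of −0.014. The lists hold long genes, with a median exonic length of 6431 bases beside 4100 for all genes past that mean.

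Among the genes that make and release Wnt ligands, Porcn, the enzyme that attaches their lipid, had a log2 fold change of 0.15 ± 0.17 (SE), and Wls, which carries them to the cell surface, of −0.20 ± 0.14 (SE). In the nucleus, Ctnnb1 (β-catenin) had −0.16 ± 0.14 (SE), Tcf7l2 −0.16 ± 0.22 (SE) and Lef1 −0.081 ± 0.26 (SE). Axin2, a feedback inhibitor and the common readout of β-catenin signalling, had 645, 596 and 684 normalized counts among control mice, against 384, 654 and 567 among p300-ifKO mice, with a log2 fold change of −0.26 ± 0.21 (SE). Here p300-ifKO replicate 2 lay within the control range, and the genotypes overlapped. Next to Dkkl1, the smallest unadjusted p values were those of the target Ccnd1 (−0.46, p 0.0527), the Apc partner Amer1 (−0.39, p 0.0746), the pathway enhancer Rspo2 (−0.29, p 0.0776), the corepressor Tle4 (−0.23, p 0.0807) and the Axin regulator Tnks (−0.30, p 0.126), each with a DESeq2 adjusted p = 0.991. When p300-ifKO replicate 2 was left out, 4 of the 81 were called, beside 2.89% of all genes tested. They were Bcl9, Celsr2, Celsr3 and Ccnd1, which were lower in the other 2 p300-ifKO mice. The libraries of these mice had a negative rho with exonic length (−0.50 and −0.28), and all control libraries a positive one. The part of length in these calls was not tested.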

How the data were processed

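The authors sequenced hippocampal RNA of 3 control and 3 p300-ifKO mice, with 1 library per mouse. The deposited table holds raw counts per gene with an exonic length and 0 columns of other samples. Per the study's methods, single-end 50-base reads were trimmed, aligned with STAR to GRCm38, kept at a mapping quality above 10 and counted on Ensembl exons with Rsubread. The submitters' processing notes name FastQC 0.11.8, Trim Galore 0.6.4, STAR 2.6.1 and DESeq2 1.30.1. Reads that align to more than 1 place are lost at that limit. A strand setting is not given in the sources used here, and counts of members with an antisense neighbour are therefore uncertain: Fzd5 (17.83% of exonic bases, with Gm38058), Sfrp2 (16.12%), Wnt11 (8.8%), Wnt7b (6.61%), Wnt5a (4.58%) and Fzd6 (3.15%).

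Symbols and coordinates came from GENCODE release M21 on the same build, which matched 55144 of 55471 genes (99.41%). Groups came from the sample titles. The comparison used DESeq2 1.42.0 in R 4.3.3, the tool of the study: a two-sided Wald test with median-of-ratios size factors, no covariate, default Cook and independent filtering, and Benjamini-Hochberg adjustment over all genes with a p, at a threshold of 0.05. Adjusted and unadjusted p values in the text are from this test unless another tool is named. TPM were computed from the deposited counts and lengths. Intervals are 95% Wald intervals, and limits for counts of 0 (3 reads) cover counting error only. Alternatives were edgeR 4.0.16, limma-voom (limma 3.58.1), TMM factors, a minimum mean count of 10, no filter in edgeR, Cook and independent filtering off, a replicate block, 1 surrogate variable (sva 3.50.0), smooth length offsets (mgcv 1.9.3), and leaving out each library. The fits were also run on simulated counts, drawn independently for each gene and without a relation to length. That run therefore cannot show how the fits handle the relation to length in these libraries. Promoters were those of RefSeq on GRCm38.p6.

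The members and gene lists were chosen with earlier results of these data known. All 39 members are named, with values per mouse for those at a mean of at least 1 TPM. Of the other pathway genes, those called, the 6 with the smallest unadjusted p and Ctnnb1, Axin2, Tcf7l2, Lef1, Porcn and Wls were to be named. Bcl9, Celsr2 and Celsr3 and the markers Dcn, Ogn, C1qa, Trem2 and Slc1a3 were named after their values were seen.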

Additional observations from a re-analysis of the deposited data

How the results depend on the processing

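In the 16 alternative fits, 0 members were called in each, although Wnt10a and Wnt2b, among others, had no adjusted p without p300-ifKO replicate 2. Of the 31 members with a mean of at least 10 normalized counts, 17 kept their direction in each fit, while 14 turned in at least 1. With 1 surrogate variable the log2 fold change was −0.029 for Wnt3, −0.058 for Wnt7b, 0.0088 for Fzd3, 0.070 for Fzd4, −0.11 for Fzd9, 0.20 for Lrp5, 0.010 for Lrp6 and 0.14 for Sfrp2. This fit also moved the median of the members from −0.14 to −0.029. It left 0 members at an unadjusted p under 0.05, beside 216 of 32774 genes tested. The surrogate variable was 0.10, 0.077 and 0.44 in control libraries and −0.82, 0.32 and −0.13 in p300-ifKO libraries. It was thus partly related to genotype, and a fit with it can also take up part of a genotype difference. With length offsets the log2 fold change was 0.032 for Fzd3, 0.017 for Fzd4, −0.018 for Fzd9 and 0.016 for Lrp5. Without both p300-ifKO replicate 1 and control replicate 3, chosen after seeing the data, the log2 fold change was −0.10 for Wnt2, −0.14 for Wnt3, −0.043 for Wnt7b, −0.094 for Wnt11, 0.028 for Fzd3, 0.12 for Fzd4, −0.071 for Fzd9, 0.26 for Lrp5, 0.058 for Lrp6 and 0.051 for Sfrp4. In that fit 2 members had an unadjusted p under 0.05, beside 97 of 30899 genes tested. The test of edgeR without a filter had 2 as well, Wnt10a and Sfrp5, beside 1292 of 32774 genes. The cause of these moves was not tested.

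Leaving out each library in turn gave between 2 and 926 genes called, 0 to 5 members at an unadjusted p under 0.05 and 0 to 4 called pathway genes, with the highest of each without p300-ifKO replicate 2, and a median of the members between −0.19 and −0.036. Without control replicate 3 the members at that p were Wnt10a and Sfrp5, beside 105 of 31605 genes tested. Log2 fold changes then ranged from −0.12 to 0.26 for Wnt3, −0.021 to 0.12 for Wnt7b, −0.20 to 0.062 for Fzd4, −0.12 to 0.32 for Fzd9, −0.83 to 0.27 for Fzd10, −0.31 to 0.11 for Lrp5, −0.082 to 0.044 for Dkk3, −0.23 to 0.38 for Sfrp1, −0.58 to 0.19 for Sfrp2 and −0.45 to 0.082 for Sfrp4.

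Whether the replicate numbers of the labels pair the mice is not known. The names of the sequenced libraries carry the same numbers in both genotypes. Deviations of same-numbered mice correlated at 0.27, −0.28 and 0.14. These values cannot decide the question, because deviations were also related to exonic length in every library. With a replicate block DESeq2 called 4 genes and not 2, 0 of them members, and the median of the members was −0.16.

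With 3 mice per genotype, 8 of the 31 members had intervals wider than a 2-fold change in a direction, and the 8 members under a mean of 10 normalized counts rest on few reads. Counts of the whole tissue do not resolve the cells that lost p300.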
